A study of Mus musculus with 12 samples.

Results

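Mkl1, now named Mrtfa, its DNA-binding partner serum response factor (Srf) and the factors that join or compete in this partnership make up a group of 7 genes: Mrtfa, Mrtfb, Myocd, Srf, Elk1, Elk3 and Elk4. They were chosen by name, as the probe sets whose single gene symbol in the array's annotation is one of these, and 9 of the 34760 probe sets of the array belong to them (3 for Mrtfb and 1 for each other gene). The 7 genes stand among 19937 genes with a probe set of their own. RNA was measured on Affymetrix Mouse Gene 1.0 ST arrays in stable lines of 4T1, a mouse mammary epithelial carcinoma line of BALB/cfC3H background. The lines are 4T1-mutB1, 4T1-ΔSAP, 4T1-FL and 4T1-control, with 3 arrays each. From the names, mutB1 was taken to be Mkl1 with a mutated B1 region, ΔSAP to lack the SAP domain and FL to be the full-length protein. All lines, control included, were kept for 48 h in DMEM with 0.03% FCS, and none received a further treatment. The labels name 1 stable line per construct, so construct and line cannot be told apart. The labels do not say whether a line was a clone or a pool, nor which promoter drove the construct, its species or what the control line carries. The replicates are cultures of the same line, so p-values measure the spread between those cultures.

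Mkl1 and its relatives Mrtfb and myocardin (Myocd) are coactivators that act through Srf at its sites. Monomeric actin binds Mkl1 and Mrtfb and holds them out of action, and when actin polymerizes they are released, enter the nucleus and join Srf on CArG boxes of cytoskeletal genes. The B1 region is the basic stretch through which Mkl1 contacts Srf, and SAP domains are known from proteins that bind DNA and chromatin. The ternary complex factors Elk1, Elk3 and Elk4 are ETS-family proteins that answer to ERK signalling. They bind the same surface of Srf as the coactivators do, next to an ETS site, and so compete with them, mostly at growth-factor immediate early genes. Srf is itself a known target of Srf, which is why its own RNA level is of interest in lines with raised Mkl1.

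The promoter of Srf shows the elements of this circuit and is printed for that reason. It is the RefSeq window of 250 bases before and 50 bases after the start of Srf in GRCm38.p6, chr17:46556113-46556412 on the minus strand, read 5′ to 3′, with CArG boxes and the ETS core CCGGAA in capitals:
Srf: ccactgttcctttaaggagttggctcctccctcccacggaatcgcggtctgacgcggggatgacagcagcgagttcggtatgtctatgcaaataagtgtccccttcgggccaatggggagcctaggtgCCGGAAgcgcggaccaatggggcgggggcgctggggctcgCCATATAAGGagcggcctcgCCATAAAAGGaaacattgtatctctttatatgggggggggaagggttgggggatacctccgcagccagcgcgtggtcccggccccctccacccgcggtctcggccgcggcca

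The Srf window holds 2 CArG boxes, which begin 82 and 62 bases before the start, and 1 CCGGAA, which begins 122 bases before it. The CArG box was searched as its consensus, which reads the same on both strands, and CCGGAA on both strands. Of all 32851 promoter windows of 300 bases, 1.63% held a CArG box and 6 windows, or 0.0183%, held 2 or more. CCGGAA stood in 14.9% of all windows. RefSeq windows were given for 6 of the 7 genes (11 windows, several for Mrtfa, Mrtfb and Elk4). The Srf window was the 1 among them with a CArG box, and CCGGAA stood in 4, those of Srf, 1 of 3 for Elk4 and 2 overlapping ones of 3 for Mrtfb. A match in these letters is a description and not a shown binding site.

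CArG boxes of genes known to answer to Srf, from among those that changed in these lines, are printed for comparison. Boxes also stood in the windows of Actc1, Cnn2, Fhl1, Myl9 and Vil1, which passed the test described below in no comparison. Further boxes, not printed, stood in those of Acta1, Fhl2 and Vcl, which did pass, and of Actg1, which had no probe set of its own. Acta1 passed in ΔSAP against control and mutB1, Fhl2 in mutB1 against FL, and Vcl in mutB1 against control and FL. All printed boxes match the consensus that was searched and differ in the A and T bases inside it. They are shown with 10 bases on either side and the box in capitals. The sites lie at chr16:57549170-57549199 (plus strand) for Filip1l, at chr10:67537484-67537513 and chr10:67537787-67537816 (plus strand) for Egr2 and at chr7:28379267-28379296 (minus strand) for Zfp36, all in GRCm38.p6:
Filip1l: atgccgcgcgCCTTATAAGGctgagcggtg
Egr2, first start site: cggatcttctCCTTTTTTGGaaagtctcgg
Egr2, second start site: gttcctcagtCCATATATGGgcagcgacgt
Zfp36: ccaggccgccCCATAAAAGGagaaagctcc

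Values are RMA log2 expression values as deposited, and a difference is the first line named minus the second on that scale. Array medians lay between 6.35 and 6.45, and a line mean under 6.35 is called low, since such a signal may be background. Arrays correlated at 0.995 to 0.997 within a line and at 0.988 to 0.995 between lines. The simple-epithelial keratins Krt8 and Krt18 had means from 12.55 to 13.20 in every line, whereas the leukocyte markers Ptprc and Itgam and the endothelial markers Pecam1, Cdh5, Kdr and Tie1 were low in every line. The third measured leukocyte marker, Cd3e, averaged 6.32 in mutB1, 6.37 in ΔSAP, 6.39 in FL and 6.51 in control. The fibroblast collagens Col1a1, Col1a2 and Col3a1 had means from 6.60 to 7.14, and the fourth fibroblast marker, Dcn, averaged 6.08 in mutB1, 5.88 in ΔSAP, 6.37 in FL and 6.18 in control. One of these 4 passed the test described below, as lower in ΔSAP than in FL. Of the 6 epithelial markers, Krt7, Krt19, Epcam and Cdh1 stood lower in mutB1 than in every other line. Epcam averaged 6.41 in mutB1, 10.14 in ΔSAP, 8.26 in FL and 8.44 in control, and Krt19 averaged 6.18, 8.89, 8.42 and 7.81 in the same lines. All 6 were higher in ΔSAP than in FL and passed the test described below. The part of these epithelial differences in the results was not tested.

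Mrtfa itself differed most among these genes. Mrtfa RNA was 4.04-fold higher in mutB1, 6.25-fold higher in ΔSAP and 7.0-fold higher in FL than in control, and at the other 8 probe sets no pair of lines differed by more than 1.26-fold. A probe set passed the test where its adjusted p in limma (Benjamini-Hochberg over all 34760 probe sets) was at most 0.01. In mutB1 against FL 1 of the 9 probe sets passed, where 17.8% of all probe sets did. In ΔSAP against FL 1 of 9 passed, where 11.4% of all did. Against control, 1 of 9 passed in mutB1 (12.7% of all), 1 of 9 in ΔSAP (14.8% of all) and 2 of 9 in FL (20.0% of all). In ΔSAP against mutB1 3 of 9 passed, where 15.1% of all did. With 9 probe sets, shares of this size do not stand apart from the background. The number of probe sets with an unadjusted limma p under 0.05 was 5 in each comparison except ΔSAP against control, where it was 3. Under the study's own filters, which also ask for at least 2-fold and for a mean of 4 or more, Mrtfa was the 1 member called in each construct line against control, where 1.21% (mutB1), 1.34% (ΔSAP) and 1.83% (FL) of all probe sets were called. Under these filters none of the 9 was called between construct lines, where 1.60% (mutB1 against FL), 0.503% (ΔSAP against FL) and 1.42% (ΔSAP against mutB1) of all were.

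Mrtfa (probe set 10430693) was taken to read the construct and the cells' own Mkl1 together. Its log2 values were 11.41, 11.23 and 11.22 in the mutB1 cultures, 11.94, 11.87 and 11.95 in ΔSAP, 12.06, 12.14 and 12.03 in FL, and 9.28, 9.28 and 9.26 in control. The arrays of the 3 construct lines lay far above those of control. The mutB1 arrays lay below those of ΔSAP and FL, and the ΔSAP arrays below those of FL, with no overlap. For scale, the arrays did not overlap at 40.2% of all probe sets in mutB1 against FL, 32.1% in ΔSAP against FL and 38.2% in ΔSAP against mutB1, and against control at 33.6% in mutB1, 36.3% in ΔSAP and 39.7% in FL. The line means were 11.29 ± 0.11 in mutB1, 11.92 ± 0.04 in ΔSAP, 12.08 ± 0.06 in FL and 9.27 ± 0.01 in control (SD, n = 3 each). Only 0.27% of all probe sets had a wider range of line means than the 2.81 of Mrtfa.

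**Figure D1:**
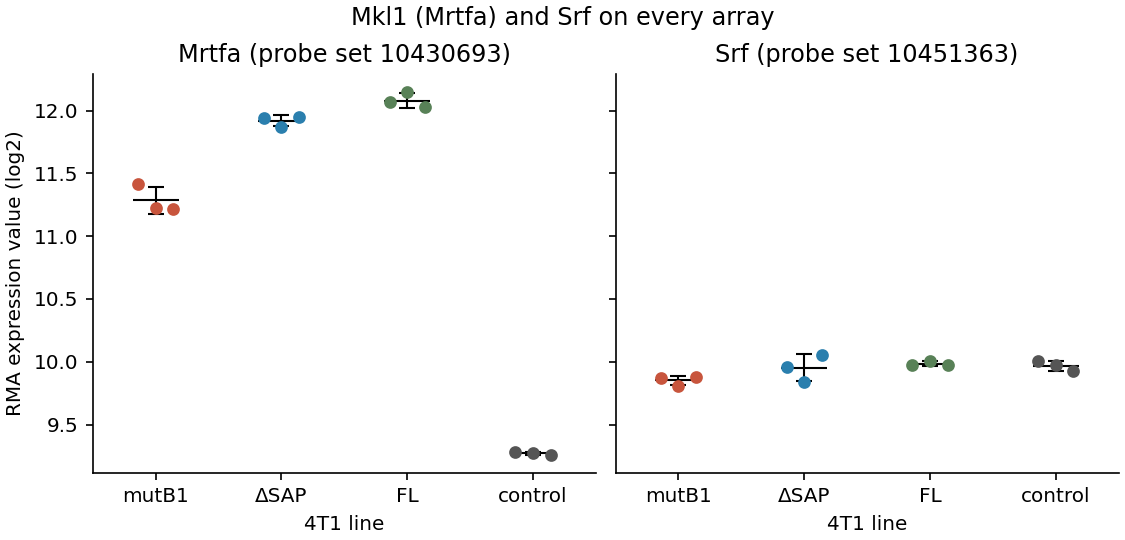
RMA expression values (log2, vertical axis) of Mrtfa, left, and Srf, right, on every array of the mutB1, ΔSAP, FL and control lines. Points are single arrays, and the horizontal bar and whiskers are the mean ± SD of 3. Mrtfa lies above 11.2 in every construct culture and near 9.27 in control, while the Srf line means span 0.13.

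The rise of Mrtfa over control was 2.01 ± 0.06 in mutB1 (SE, limma adjusted p = 3.12e-09), 2.64 ± 0.06 in ΔSAP (adjusted p = 7.5e-10) and 2.81 ± 0.06 in FL (adjusted p = 3.67e-10). As folds, the 95% intervals ran from 3.70 to 4.40 in mutB1, from 5.74 to 6.82 in ΔSAP and from 6.42 to 7.62 in FL. In order from the highest, the levels were FL, ΔSAP, mutB1 and control, and FL and ΔSAP were the only neighbours whose difference did not pass. ΔSAP stood 0.16 below FL (difference -0.16 ± 0.06, limma adjusted p = 0.0776), with a 95% interval from 0.820 to 0.974 of the FL level. mutB1 stood 0.79 below FL (difference -0.79 ± 0.06, limma adjusted p = 2.79e-06), which is 1.73-fold. ΔSAP exceeded mutB1 by 0.63 ± 0.06 (limma adjusted p = 1.73e-05), or 1.55-fold. Comparisons of mutB1 with the other construct lines were thus made at unequal Mkl1 RNA levels as read by this probe set. These 5 calls and the absence of a call between ΔSAP and FL held in all 13 alternative settings. Which bases the probes cover, and so whether each construct is read with equal yield, was not tested.

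Mrtfb, the relative of Mkl1 that shares its actin-binding motifs, was read by 3 probe sets, with partly different annotated transcripts. Probe set 10433633 is also annotated with transcripts that the others lack, and whether those belong to Mrtfb was not checked. The brightest (10433639) had values of 10.21, 10.24 and 10.21 in mutB1, 10.27, 10.34 and 10.34 in ΔSAP, 10.25, 10.21 and 10.32 in FL, and 10.36, 10.39 and 10.46 in control. The arrays of mutB1, ΔSAP and FL all lay below every control array, and those of mutB1 and FL overlapped. The second (10433656) had values of 10.03, 10.01 and 10.00 in mutB1, 10.19, 10.29 and 10.29 in ΔSAP, 10.08, 10.04 and 10.16 in FL, and 10.25, 10.14 and 10.36 in control. Here mutB1 lay below all other arrays, and ΔSAP and control overlapped. The third (10433633) had values of 9.29, 9.32 and 9.30 in mutB1, 9.49, 9.44 and 9.54 in ΔSAP, 9.44, 9.41 and 9.38 in FL, and 9.46, 9.52 and 9.43 in control. Again mutB1 was the lowest line, with no overlap with the others.

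The 3 Mrtfb probe sets thus gave the lowest mean to mutB1, and they differed in whether ΔSAP or control was the highest. Against control, mutB1 stood at -0.18, -0.24 and -0.17 (in the order above, SE 0.04, 0.06 and 0.04), and none of these passed (limma adjusted p = 0.0127, 0.0159 and 0.0106). FL stood at -0.14, -0.16 and -0.06 against control (limma adjusted p = 0.0311, 0.0765 and 0.311). ΔSAP stood at -0.09, 0.01 and 0.02 against control, with limma adjusted p from 0.197 to 0.927. One Mrtfb call was made, at probe set 10433633, where ΔSAP exceeded mutB1 by 0.19 ± 0.04 (limma adjusted p = 0.0055). It was lost in 8 of 13 alternative settings, among them the fit of the 6 arrays alone and the removal of any 1 mutB1 array, with adjusted p up to 0.0355. When the 3 probe sets were averaged per gene, the mean was higher in ΔSAP than in mutB1 by 0.18 and passed (limma adjusted p = 0.00216, over genes), and it was lower in mutB1 than in control by 0.20 and passed (adjusted p = 0.00117). No other pair of lines passed with the averaged probe sets.

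Myocd, the coactivator of cardiac and smooth muscle, was low in every line, with means of 4.90 ± 0.16 in mutB1, 4.85 ± 0.13 in ΔSAP, 4.93 ± 0.11 in FL and 4.82 ± 0.06 in control (SD, n = 3 each). Its single arrays ran from 4.70 to 5.07 and overlapped between all lines, with limma adjusted p from 0.477 to 0.863 over the 6 comparisons. RMA values carry no detection call, so these values set no bound on the level of Myocd beyond being low on this scale.

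Srf, the DNA-binding partner, varied little between lines. Its values were 9.87, 9.81 and 9.88 in mutB1, 9.96, 9.84 and 10.06 in ΔSAP, 9.97, 10.01 and 9.97 in FL, and 10.00, 9.97 and 9.92 in control. The mutB1 arrays were all below those of FL and control, and the ΔSAP arrays were spread across the range of the others. Line means were 9.85 ± 0.04 in mutB1, 9.95 ± 0.11 in ΔSAP, 9.98 ± 0.02 in FL and 9.97 ± 0.04 in control (SD, n = 3 each), and 78.6% of all probe sets had a wider range of line means. No Srf comparison passed, in the main test or in any alternative setting.

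With Mkl1 RNA at 7.0-fold in the FL line, Srf RNA differed from control by 0.02 ± 0.05 (limma adjusted p = 0.871), with a 95% interval of the fold from 0.933 to 1.10. In ΔSAP the difference from control was -0.01 ± 0.05 (adjusted p = 0.878, fold interval 0.912 to 1.07), and in mutB1 it was -0.12 ± 0.05 (adjusted p = 0.181, fold interval 0.851 to 1.00). mutB1 stood at -0.13 ± 0.05 against FL (limma adjusted p = 0.0984) and ΔSAP at -0.03 ± 0.05 (adjusted p = 0.771). A change of Srf RNA larger than these intervals was not seen in serum-poor medium in any line, and smaller ones were not resolved by 3 arrays per line.

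**Figure D2:**
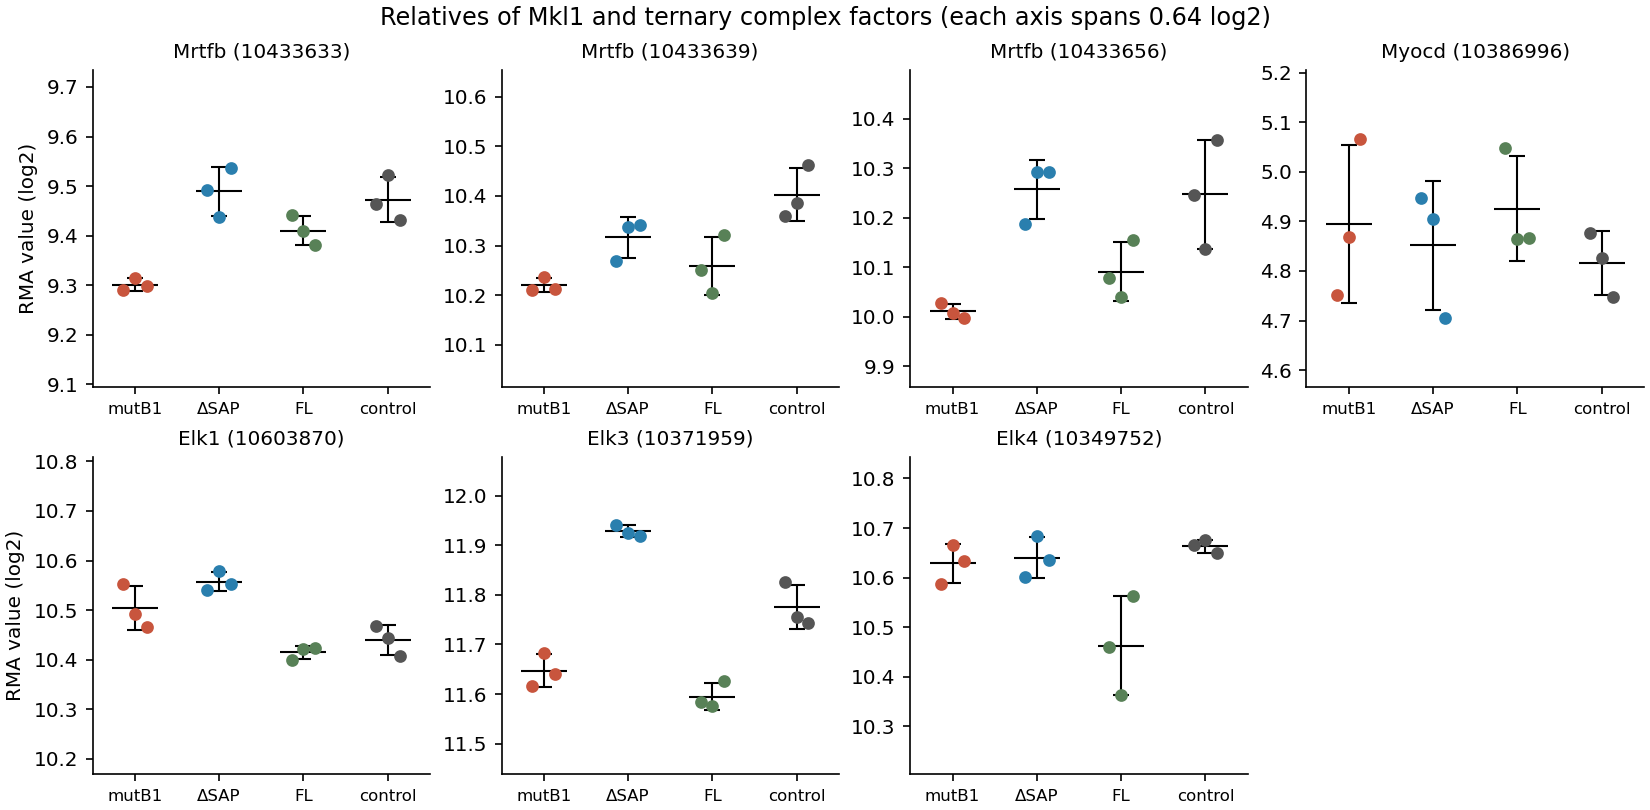
RMA expression values (log2) of the 3 Mrtfb probe sets, Myocd, Elk1, Elk3 and Elk4 on every array, by line. Points are arrays and bars with whiskers are the mean ± SD of 3, and every vertical axis spans the same range, placed around the probe set's own values. mutB1 is the lowest line at all 3 Mrtfb probe sets, ΔSAP is the highest for Elk3 and FL the lowest for Elk4.

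Among the ternary complex factors, Elk3 was the member besides Mrtfa whose F test over the 4 lines passed (limma adjusted p = 0.000135, where 27.7% of all probe sets passed). Elk3, known as Net, is repressive at Srf targets until ERK phosphorylates it. Its values were 11.62, 11.68 and 11.64 in mutB1, 11.94, 11.93 and 11.92 in ΔSAP, 11.58, 11.57 and 11.63 in FL, and 11.83, 11.76 and 11.74 in control. All ΔSAP arrays lay above all others, control lay between, and mutB1 and FL overlapped at the bottom. Elk3 was higher in ΔSAP than in FL by 0.33 ± 0.04 (1.26-fold, limma adjusted p = 0.000137) and higher in ΔSAP than in mutB1 by 0.28 ± 0.04 (1.22-fold, adjusted p = 0.000261). Both calls held in all 13 alternative settings.

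Against control, Elk3 differed in opposite directions. It fell by 0.18 on the log2 scale in FL (SE 0.04, limma adjusted p = 0.00344), and this call was lost in 5 of 13 settings: the fit of the 6 arrays alone, the replicate block, and without control replicate 1, FL replicate 1 or FL replicate 2 (adjusted p up to 0.0272). In ΔSAP the difference from control was 0.15 ± 0.04 (adjusted p = 0.0114) and in mutB1 it was -0.13 ± 0.04 (adjusted p = 0.0322), neither of which passed in the main fit. Both passed with trend and robust eBayes (limma adjusted p = 0.00114 in ΔSAP and 0.00443 in mutB1). The ΔSAP difference also passed when only probe sets with a mean of at least 4 were tested. In order the Elk3 levels were ΔSAP, control, mutB1 and FL, with no neighbouring pair past the threshold in the main fit. Mrtfa in ΔSAP stood between its levels in mutB1 and FL, without passing against FL, and Elk3 in ΔSAP stood above both. Whether these levels are related was not tested.

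Elk1, the best-studied ternary complex factor, had values of 10.55, 10.49 and 10.47 in mutB1, 10.54, 10.58 and 10.55 in ΔSAP, 10.40, 10.42 and 10.42 in FL, and 10.47, 10.44 and 10.41 in control. The ΔSAP arrays lay above all FL and control arrays, and FL lay below mutB1. Its largest difference was ΔSAP against FL at 0.14 ± 0.04 (limma adjusted p = 0.0179), followed by ΔSAP against control at 0.12 ± 0.04 (adjusted p = 0.0365). No Elk1 comparison passed, and with eBayes set to trend and robust both of these did (adjusted p = 0.00356 and 0.00971).

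Elk4, also called Sap1, which shares no more than a name with the SAP domain, had values of 10.59, 10.67 and 10.63 in mutB1, 10.60, 10.68 and 10.64 in ΔSAP, 10.46, 10.36 and 10.56 in FL, and 10.67, 10.68 and 10.65 in control. FL was lower than the other lines on every array, with the widest spread of the 4 (SD 0.10). FL stood at -0.20 ± 0.05 against control (limma adjusted p = 0.0126), ΔSAP at 0.18 ± 0.05 against FL (adjusted p = 0.0348) and mutB1 at 0.17 ± 0.05 against FL (adjusted p = 0.0344). None of these passed in the main fit, and each passed without FL replicate 3 (adjusted p = 0.00293, 0.00879 and 0.00772). The difference of FL from control also passed with all 12 arrays after further quantile normalization, with trend and robust eBayes and with array weights. The 3 ternary complex factors had their lowest mean in FL, and these 3 sets of differences share the FL arrays.

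**Figure D3:**
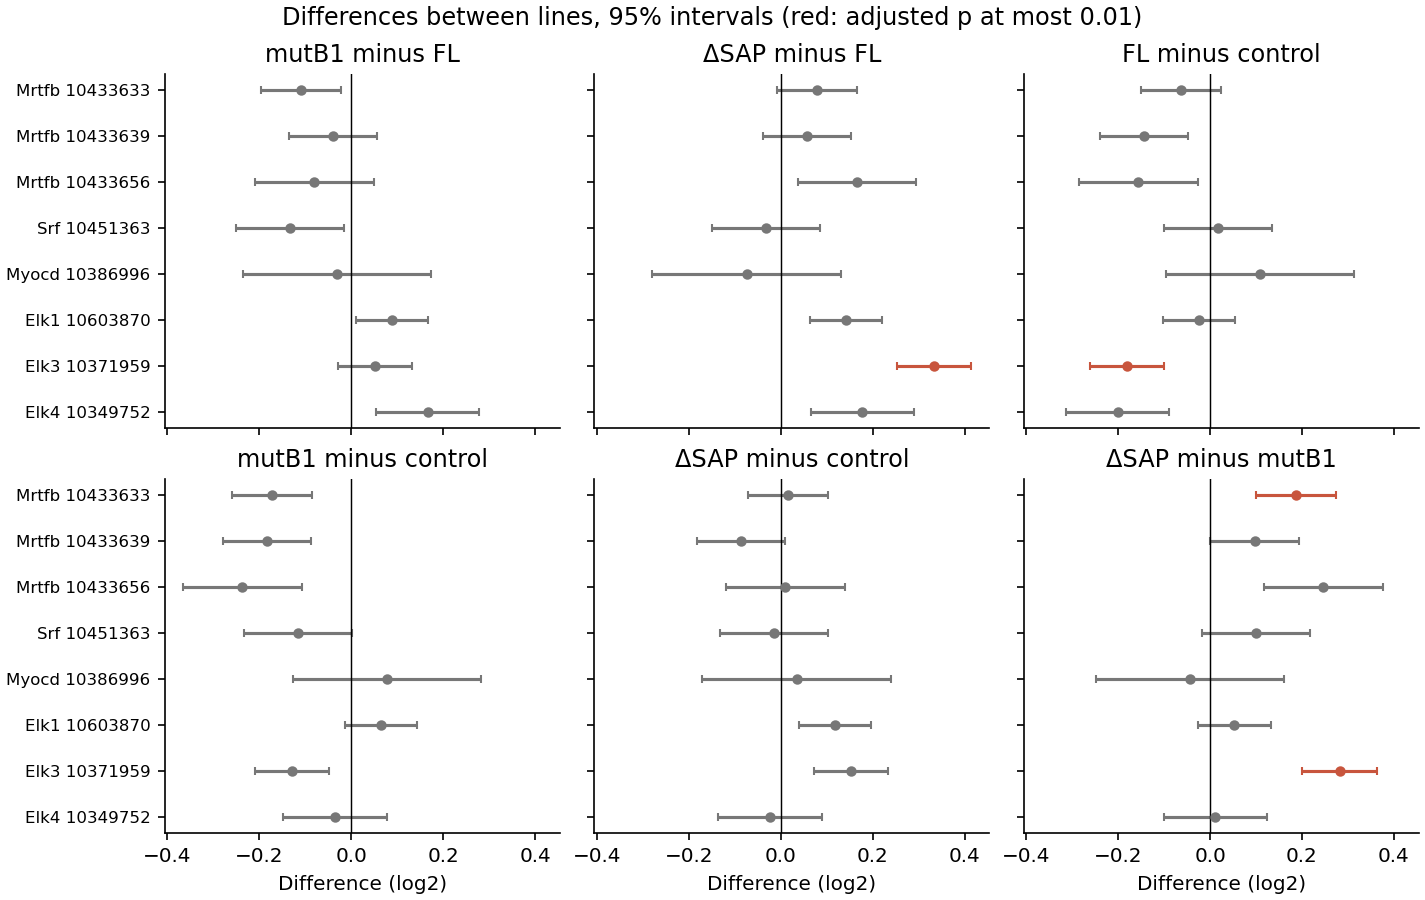
Differences between lines (log2, horizontal axis) for the 8 probe sets other than Mrtfa, in 6 panels, 1 per comparison, with 95% intervals from the limma fit. Red marks an adjusted p of at most 0.01: Elk3 in ΔSAP minus FL, FL minus control and ΔSAP minus mutB1, and Mrtfb 10433633 in ΔSAP minus mutB1.

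Genes known as cytoskeletal and contractile targets of Srf with Mkl1 or Mrtfb passed the test in both directions in every comparison. Of 34 listed genes 33 had a probe set of their own (Actg1 had none). Tpm2, a tropomyosin of contractile filaments, and the smooth muscle actins Actg2 and Acta2 were highest in ΔSAP. Cald1 (caldesmon, which binds actin and tropomyosin) and Zyx (zyxin, a focal adhesion protein) were highest in mutB1.

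Against control, 5 of the 33 were higher and 4 lower in mutB1 (5.83% and 6.89% of all probe sets), with a median difference of 0.00 in the list and 0.00 over all probe sets. In ΔSAP 8 were higher and 2 lower (6.96% and 7.83% of all), with a median of -0.01 against -0.03 over all. In FL 6 were higher and 4 lower (9.61% and 10.4% of all), with a median of 0.03 against -0.01 over all. With 1 array left out at a time the counts higher and lower ran from 3 to 5 and at 2 in mutB1, at 7 and 2 in ΔSAP, and from 4 to 5 and 2 to 4 in FL. In mutB1, 3 were higher without mutB1 replicate 2 or 3 or any 1 control array, and 2 were lower without any 1 array. The lower count of 2 in FL came without FL replicate 2. The other settings gave wider ranges: 2 to 8 higher and 1 to 4 lower in mutB1, 4 to 9 and 1 to 5 in ΔSAP, and 4 to 7 and 2 to 6 in FL.

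In ΔSAP against control, Tpm2 rose by 1.05 ± 0.10 (limma adjusted p = 3.51e-05), Actg2 by 0.90 ± 0.08 (adjusted p = 2.57e-05) and Acta2 by 0.79 ± 0.06 (adjusted p = 5.12e-06). The control means of these 3 genes were low (5.82, 5.79 and 6.20), as were their means in mutB1 (5.57, 5.65 and 6.26) and those of Tpm2 (5.78) and Actg2 (6.04) in FL. Differences against such a mean may be understated here and below, and the actin genes are near copies whose probes may share signal. In FL against control, Filip1l, whose CArG box is printed above, rose by 0.46 ± 0.05 (limma adjusted p = 7.21e-05), Ccn1, a matricellular protein, by 0.32 ± 0.04 (adjusted p = 0.00014) and Acta2 by 0.43 ± 0.06 (adjusted p = 0.000248), while Ccn2 fell by 0.40 (adjusted p = 0.000106). In mutB1 against control, Cald1 rose by 0.33 ± 0.04 (limma adjusted p = 2e-04) and Zyx by 0.28 ± 0.04 (adjusted p = 0.000291), while Actn1, an actin cross-linker, fell by 0.39 (adjusted p = 7.16e-06).

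In mutB1 against FL, 6 of the 33 were higher and 7 lower (9.00% and 8.82% of all), with a median of -0.05 against 0.00 over all. The lower count was 2 after median centring, 4 after a further quantile normalization and 2 to 6 with 1 array left out (2 without FL replicate 2, 3 without FL replicate 3 or mutB1 replicate 3, 4 without FL replicate 1), while the higher count was 6 under both scalings. Ccn2 was higher in mutB1 by 0.62 ± 0.05 (limma adjusted p = 5.55e-06) and Cald1 by 0.53 ± 0.04 (adjusted p = 4.98e-06), and Actn1 (-0.31 ± 0.03, adjusted p = 2.71e-05) and Acta2 (-0.36 ± 0.06, adjusted p = 0.000948) were lower. In ΔSAP against FL, 4 were higher and 3 lower (5.70% and 5.73% of all), with a median of 0.00 against -0.03 over all. Tpm2 was higher in ΔSAP by 1.09 ± 0.10 (limma adjusted p = 5.3e-05) and Actg2 by 0.65 ± 0.08 (adjusted p = 0.000382), and Ccn1 was lower (-0.36 ± 0.04, adjusted p = 0.000178). In ΔSAP against mutB1, 5 were higher and 6 lower (7.07% and 8.00% of all), among them Tpm2 at 1.30 ± 0.10 (limma adjusted p = 7.08e-06, low in mutB1) and Cald1 at -0.59 ± 0.04 (adjusted p = 2.74e-06), with a median of 0.03 against -0.03. The lower count there was 3 without mutB1 replicate 2 or mutB1 replicate 3. Over the other settings the counts higher and lower were 5 to 6 and 2 to 9 in mutB1 against FL, 2 to 4 and 2 to 3 in ΔSAP against FL, and 4 to 9 and 3 to 7 in ΔSAP against mutB1.

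**Figure D4:**
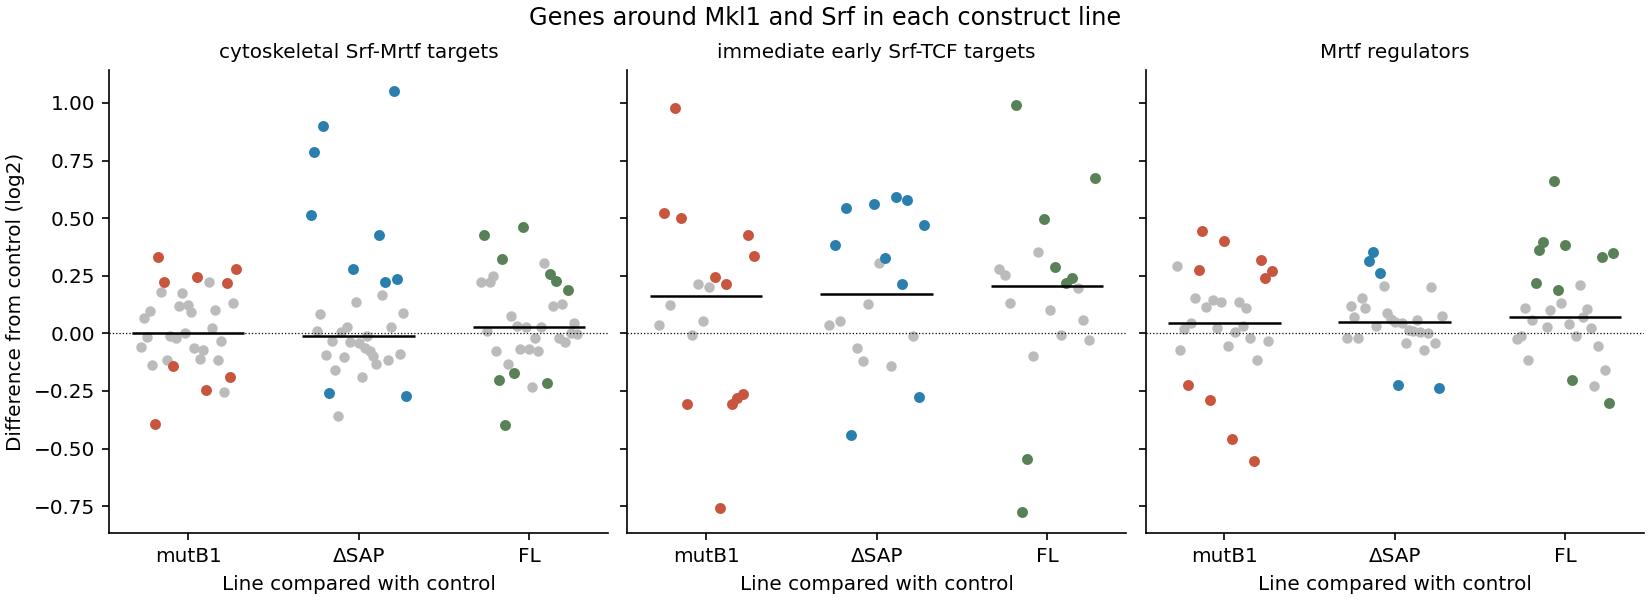
Difference from control (log2, vertical axis) of every measured gene in 3 lists, in the mutB1, ΔSAP and FL lines. Each point is a gene at its brightest probe set, in alphabetical order within a line, coloured where the limma adjusted p is at most 0.01 and grey otherwise, and the bar is the list's median. Points lie on both sides of 0 in every list and line.

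Immediate early genes known as targets of Srf with ternary complex factors were all measured, 18 in number. In mutB1 7 were higher and 5 lower than in control (5.83% and 6.89% of all probe sets), in ΔSAP 8 and 2 (6.96% and 7.83% of all), and in FL 6 and 2 (9.61% and 10.4% of all). The medians were 0.16, 0.17 and 0.21 in these lines, against 0.00, -0.03 and -0.01 over all probe sets. With 1 array left out the higher counts ran from 5 to 7, 6 to 8 and 5 to 6, and the lower ones from 3 to 4 (3 without control replicate 1 or 2), 1 to 2 (1 without control replicate 1) and at 2. Over the other settings the counts higher and lower were 3 to 7 and 3 to 5 in mutB1, 7 to 8 and 1 to 2 in ΔSAP, and 4 to 7 and 2 in FL.

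Egr1, a zinc finger factor induced by growth factors, was higher than in control by 0.98 ± 0.05 in mutB1 (limma adjusted p = 2.89e-07), 0.54 ± 0.05 in ΔSAP (adjusted p = 2.28e-05) and 0.99 ± 0.05 in FL (adjusted p = 1.87e-07). Its relative Egr2, with a CArG box at each of the start sites printed above, went the other way in part: it was higher than in control by 0.50 ± 0.06 in mutB1 (limma adjusted p = 0.000137) and lower in ΔSAP (-0.44 ± 0.06, adjusted p = 0.000286) and FL (-0.77 ± 0.06, adjusted p = 3.26e-06). Zfp36, an mRNA decay factor, rose by 0.67 ± 0.05 in FL (adjusted p = 2.64e-06). It was also higher than in control in mutB1 (0.34, limma adjusted p = 0.00061) and in ΔSAP (0.47, adjusted p = 5.69e-05). Junb and Klf4, transcription factors of the early response, rose in ΔSAP by 0.59 ± 0.04 (limma adjusted p = 3.21e-06) and 0.58 ± 0.06 (adjusted p = 3.45e-05), and Ier5 fell by 0.76 in mutB1 (adjusted p = 7.45e-06). Junb also passed as higher than control in mutB1 (0.21, limma adjusted p = 0.00394) and FL (0.22, adjusted p = 0.0023), and Klf4 as lower in mutB1 (-0.28, adjusted p = 0.00495).

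Between the construct lines, 3 of the 18 were higher and 6 lower in mutB1 than in FL (9.00% and 8.82% of all), with a median of -0.03. In ΔSAP 4 were higher and 2 lower than in FL (5.70% and 5.73% of all), with a median of -0.02, and 7 were higher and 3 lower than in mutB1 (7.07% and 8.00% of all), with a median of 0.09. Egr2 was 2.42-fold higher in mutB1 than in FL (limma adjusted p = 1.22e-07), and Klf10 (-0.55 ± 0.04, adjusted p = 3.47e-06) and Ier5 (-0.75 ± 0.06, adjusted p = 6.13e-06) were lower. In ΔSAP against FL, Junb was higher by 0.37 ± 0.04 (limma adjusted p = 0.000142) and Egr1 lower (-0.45 ± 0.05, adjusted p = 0.000152). The lower count in ΔSAP against FL was 1 after median centring, which left the 4 higher, and 1 without any 1 FL array, ΔSAP replicate 2 or ΔSAP replicate 3. The fit of those 6 arrays alone gave 2 higher and 1 lower.

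The third list holds proteins known to control Mkl1 through actin, nuclear transport or direct binding, with 27 of 29 measured (Rock2 and Ddx19a had no probe set of their own). Against control, 6 were higher and 4 lower in mutB1 (5.83% and 6.89% of all), 3 and 2 in ΔSAP (6.96% and 7.83% of all), and 8 and 2 in FL (9.61% and 10.4% of all). The counts in ΔSAP are near the background. The medians were 0.05, 0.05 and 0.07 in these lines, against 0.00, -0.03 and -0.01 over all. With 1 array left out the higher counts ran from 3 to 5, 2 to 3 and 5 to 7, and the lower ones from 3 to 4, at 1, and from 1 to 2. The low values came in mutB1 without control replicate 1 or 3 or mutB1 replicate 1 or 2 (3 higher), in ΔSAP without any 1 array (1 lower), and in FL without control replicate 2 or FL replicate 3 (5 higher) and without control replicate 1 or 3 or FL replicate 1 (1 lower). Median centring gave 3 higher and 3 lower in mutB1, 3 and 1 in ΔSAP, and 5 and 3 in FL. Over the settings other than leaving out an array there were 2 to 7 higher and 2 to 4 lower in mutB1, 2 to 5 and 0 to 2 in ΔSAP, and 5 to 9 and 1 to 3 in FL.

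The formin Diaph3, which polymerizes actin, was higher than in control by 0.44 ± 0.04 in mutB1 (limma adjusted p = 5.08e-05), 0.36 ± 0.04 in ΔSAP (adjusted p = 0.00022) and 0.40 ± 0.04 in FL (adjusted p = 6.57e-05). Kpna1, an importin alpha of nuclear import, rose by 0.66 ± 0.05 in FL against control (adjusted p = 5.11e-06) and was lower than in FL in both mutB1 (-0.52 ± 0.05, adjusted p = 4.02e-05) and ΔSAP (-0.46 ± 0.05, adjusted p = 0.000186). Lmna, a nuclear lamin, fell by 0.46 in mutB1 against control (limma adjusted p = 1.15e-05). Scai, known to bind Mkl1 and hold its activity down, was higher in mutB1 than in FL by 0.40 ± 0.05 (limma adjusted p = 0.00022). Between construct lines, 2 were higher and 4 lower in mutB1 than in FL (9.00% and 8.82% of all, median -0.06). In ΔSAP 1 was higher and 4 lower than in FL (5.70% and 5.73% of all, median -0.04), and 5 were higher and 4 lower than in mutB1 (7.07% and 8.00% of all, median -0.04). After a further quantile normalization the counts in ΔSAP against FL were 2 higher and 4 lower. In ΔSAP against mutB1, median centring gave 3 higher and 3 lower, the fit of those 6 arrays alone 3 and 1, and the lower count was 2 without ΔSAP replicate 1 or 2.

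The printed boxes come from a search of the promoters of the 3 lists. A CArG box stood in 11 of 33 windows of the cytoskeletal genes (33.3%), in 5 of 17 windows of the immediate early genes (29.4%) and in 0 of 33 windows of the regulators of Mkl1, against 1.63% of all windows. The windows of a gene can overlap and hold the same site. The list of distinct sites also left out a chromosome that the window counts include. For the 5 immediate early windows this list holds 3 distinct sites of 2 genes, Egr2 and Zfp36, among 13 genes with windows. Any box on the chromosome left out is not among these 3. The 11 cytoskeletal windows hold 11 sites of 10 genes among 28. CCGGAA stood in 3 of the 33 cytoskeletal windows (9.09%), in 4 of the 17 immediate early windows (23.5%) and in 8 of the 33 windows of the regulators (24.2%), against 14.9% of all.

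The genes whose values most resembled those of Mrtfa over the 12 arrays, by Pearson correlation, were Cask, a membrane scaffold kinase (r = 0.993), Fbxw17 (0.988), the RNA sensor Ifih1 (0.988), the collagenase Mmp13 (0.987) and the channel protein Panx1 (0.987). Their means were higher in all 3 construct lines than in control. Ifih1 stood at 10.68 in mutB1, 10.87 in ΔSAP, 11.11 in FL and 8.71 in control, and Cask at 10.18, 10.32, 10.34 and 9.67 in the same order. For Elk3 the nearest were Spin4 (r = 0.975), the choline transporter Slc44a1 (0.967), Agbl5 (0.962), Cyb561 (0.961) and Mcrs1 (0.961), with Spin4 at 8.50 in mutB1, 9.25 in ΔSAP, 8.35 in FL and 8.90 in control. These genes were picked from the whole table for their likeness, and the points come in 4 lines of 3 cultures, so the correlations describe the 4 line levels.

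**Figure D5:**
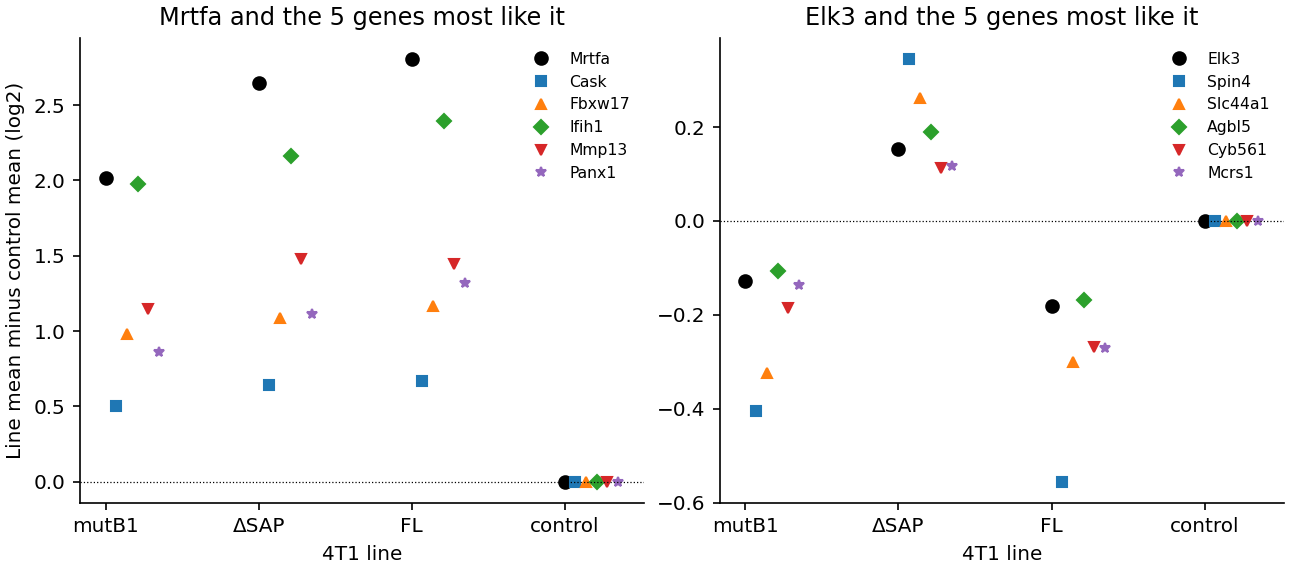
Line mean minus the control mean (log2, vertical axis) in the mutB1, ΔSAP, FL and control lines for Mrtfa and the 5 genes most like it, left, and for Elk3 and the 5 genes most like it, right. Symbols are genes, set slightly apart. Mrtfa and its nearest genes lie above control in every construct line, and Elk3 and its nearest genes lie above control in ΔSAP and below it in mutB1 and FL.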

How the data were processed

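The deposited table holds log2 expression values for 34760 probe sets on 12 arrays. Per the series design text and the submitters' processing notes, the authors made these log2 values with RMA (affy, R 2.10.0). The sources used here give no probe set definition, genome build or scan batch. Per the labels' protocols, 100 ng of total RNA per culture was amplified. GEO's platform annotation gave 21640 probe sets a single symbol, 1321 several and 11799 none, and 21553 of the single-symbol probe sets matched RefSeq (GRCm38.p6) by Entrez identifier. A list gene is read at its brightest probe set.

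All 12 arrays entered a single limma 3.58.1 fit (R 4.3.3, lmFit and eBayes, 4 line means), and p-values were adjusted by Benjamini and Hochberg's method across the whole table. The fit was tested on simulated data. Intervals are 95%. Precision is limited by 3 arrays per line.

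Alternatives were median centring, further quantile normalization, testing only probe sets with a mean of at least 4, fitting the 2 lines alone, a replicate block, trend and robust eBayes, array weights, leaving out each array, and averaging a gene's probe sets. All probe sets of the members are described. In each list up to 4 genes per direction with the smallest adjusted p were eligible to be named, and the 5 genes with the highest correlation to Mrtfa and to Elk3 (the other member passing the F test). Members and lists were chosen with earlier results of these data known.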

Additional observations from a re-analysis of the deposited data

How the results depend on the processing

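Counts of member probe sets passing the test moved in at least 1 alternative in every comparison. In mutB1 against FL the count moved only where an array was left out. In ΔSAP against mutB1, where 3 passed, 2 to 4 did over the alternatives. Against control, a further quantile normalization gave 3 in mutB1 (1 higher and 2 lower) and 4 in FL (1 higher and 3 lower), the limit to probe sets with a mean of at least 4 gave 3 in mutB1 and 2 in ΔSAP, trend and robust eBayes gave 5 in mutB1 and 3 in ΔSAP, array weights gave 2 in mutB1, and the fit of the 2 lines alone gave 1 in FL. Trend and robust eBayes gave 2 in ΔSAP against FL. In FL against control, Elk4 was added to the main calls with trend and robust eBayes and with array weights. With 1 array left out the counts ran from 1 to 2 in mutB1 against FL (2 without FL replicate 3), 1 to 2 in ΔSAP against FL (2 without FL replicate 3), 1 to 3 in FL against control (3 without FL replicate 3; 1 without control replicate 1, FL replicate 1 or FL replicate 2), 1 to 2 in mutB1 against control (2 without control replicate 2), 1 to 1 in ΔSAP against control and 2 to 3 in ΔSAP against mutB1. The added members were Mrtfb and the Elk genes at log2 differences under 0.3, and the cause of these moves was not tested. Over all member probe sets, comparisons and alternatives, 668 outcomes kept their side of the threshold, 27 passed where the main fit did not, 13 no longer passed and none of those past the threshold changed direction. The list counts were within 1.5 times the main count in 385 cases and moved further in 83. Over all probe sets, median centring moved the split of higher and lower calls to 3385 and 2060 in mutB1 against FL, 1798 and 1136 in ΔSAP against FL and 2327 and 3841 in FL against control, where the main fit gave 3128 and 3066, 1981 and 1991, and 3340 and 3599.

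The replicate numbers did not pair the arrays: of 18 pairs of same-numbered arrays, 2 had deviations from their line means that correlated above 0.1 (range -0.20 to 0.17), and 3 of 12 arrays correlated best with their own number. With the replicate block, 1 member probe set passed in FL against control, where 2 did without it.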
